A study of Mus musculus with 44 samples.

Results

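Unrecombined clone 2 of the HexERTVP2 mouse embryonic stem (ES) cells was compared with unrecombined clone 1. The members were 3 arrays of clone 2 and 5 arrays of clone 1, 8 of the 44 arrays in the series. They were taken by title and array code, and 4 arrays whose title and code contradict each other were left out of every comparison. The study looked for genes controlled by Hex (gene symbol Hhex), a homeodomain repressor of early anterior endoderm. All lines derive from CGR8 cells of the cgr8.8 clone, and gene expression was measured on Affymetrix MG-U74Av2 arrays.

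Clone 2 carries HexERTVP2 targeted to Rosa26, a mouse locus used for broad expression of inserted DNA, and was unrecombined and grown without 4-OHT (3 arrays). Clone 1 carries the same targeted construct and was likewise unrecombined and without 4-OHT (5 arrays). Wild-type CGR8.8 cells served as a further point of reference (4 arrays). 4-OHT is 4-hydroxytamoxifen, the ligand used to switch on proteins fused to the modified oestrogen receptor domain known as ERT. The labels do not spell out the parts of the construct or what recombination removes. The same 2 clone numbers were also arrayed in 3 other states: unrecombined with 4-OHT, recombined without it and recombined with it (9 arrays of clone 2 and 11 of clone 1). Each clone number stands for 1 clonal line, so a clone difference is a difference between 2 lines and not between genotypes. Nothing in the labels tells if replicate arrays stem from different cultures or that a recombined line was made from the unrecombined line of the same number. P-values therefore measure the spread between these arrays, which may be technical.

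Mouse ES cells are derived from the early embryo and can form all its tissues, and lines cloned from 1 culture can differ stably in imprinted gene expression, DNA methylation and chromosome number. They grow as a mixture of naive cells and cells leaning towards the first extra-embryonic layer, the primitive endoderm, which lays down basement membrane made of type IV collagen and laminin. The guanylate-binding proteins, the immunoproteasome and the MHC class I loading machinery are induced by interferon in most mouse cells.

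The arrays carried the markers of ES cells: 9 of 10 listed markers lay above the array median, with Dppa5a at 12.1 log2 units, and 2 of the 10 were lower in clone 2. Values are log2 intensities after RMA, a method that corrects background, makes the arrays' distributions alike and combines the probes of a probe set. Summed over 12 fibroblast markers (feeder cells), linear intensity was 1900 to 2080 in clone 2, against 2082 to 2218 in clone 1, and 1790 to 1875 in wild type. Correlations between arrays were 0.978 to 0.991 within clone 2, 0.988 to 0.997 within clone 1 and 0.975 to 0.994 between the clones. The β-actin 3′ over 5′ ratio, a sign of RNA or labelling quality, ran from 0.56 to 1.48 on the log2 scale in clone 2 and from 0.57 to 1.38 in clone 1, so both clones held arrays at both ends. Clone 2 array 1 had a narrower range of values: against the clone 1 mean its median difference was -0.24 in the brightest 10% of probe sets, whereas clone 2 arrays 2 and 3 gave -0.04 and -0.08 there. The median difference between the clones thus moved with level. It ran from -0.14 in the brightest 10% to 0.12 in the 10% band of level where it was highest.

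In clone 2, 462 probe sets were higher and 619 lower than in clone 1 at an adjusted p under 0.05 (limma, Benjamini-Hochberg over 12422 probe sets). A probe set past that threshold is called changed below. The 1081 called made up 8.7% of those tested, with 3.72% higher and 4.98% lower. Most differences were small: their median size was 0.39 log2 units, and 21 reached 1 log2 unit (a 2-fold difference), 3 higher and 18 lower. The genes called higher were dim, with a median level of 6.16, against 7.71 for the genes called lower and 6.77 for all probe sets. Among the 4 arrays with a low β-actin ratio (2 of each clone) and among the 4 with a high one (1 of clone 2 and 3 of clone 1) Mest differed by -2.45 and -2.80 and Gbp2 by -1.56 and -1.78. For 856 of the 1081 the arrays of the clones did not overlap, which held for 16.3% of all probe sets. The largest rises and falls named below were picked among called probe sets without overlap, so for them its absence was a condition of the choice.

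How many were called depended on the fit and on single arrays, above all on clone 2 array 3. Without that array 257 were called. Leaving out clone 1 array 1, 3 or 4 gave 577, 634 and 541, and the 8 arrays fitted alone gave 215. Other settings raised the count and turned the majority to higher calls: 2658 were called with the β-actin ratio in the fit (1412 higher and 1246 lower), and 1540 without clone 2 array 2 (939 higher and 601 lower). The description below therefore leads with the 93 probe sets (0.749% of those tested) called in the same direction under each of 18 alternative fits that tested them, 15 higher (0.121%) and 78 lower (0.628%). They carry 75 distinct gene symbols, and 14 of them have several symbols or none and are given by probe set ID.

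The largest difference was in Mest, an imprinted gene expressed from the paternal copy that encodes a membrane-bound hydrolase-like protein. Mest measured 6.05, 6.32 and 6.40 log2 units in clone 2 arrays 1 to 3, against 8.72, 9.02, 8.84, 8.98 and 8.61 in clone 1 arrays 1 to 5. No clone 2 array came within 2 log2 units of a clone 1 array, and the 4 wild-type arrays lay between the clones (7.96 ± 0.11, SD). Mest fell 5.96-fold in clone 2, a difference of -2.58 ± 0.18 (SE, adjusted p = 6.21e-10). In the other states the difference was -2.08 (unrecombined with 4-OHT), -2.23 (recombined) and -2.15 (recombined with 4-OHT), each from arrays not used in the first comparison.

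Rhox5, an X-linked homeobox gene whose promoter is known to be silenced by DNA methylation, measured 7.56, 7.28 and 7.28 in clone 2 and 8.74, 8.65, 8.82, 8.94 and 8.71 in clone 1. The groups did not overlap, and wild type was higher still (9.19 ± 0.09). The Rhox5 difference was -1.40 ± 0.10 (adjusted p = 1.47e-09), and -1.39, -0.65 and -0.64 in the other states in the same order. Calml4, a calmodulin-like gene, measured 6.63, 6.39 and 6.36 in clone 2 against 7.83, 7.35, 7.75, 7.73 and 7.48 in clone 1. It too was lowest in clone 2 and highest in wild type (8.48 ± 0.29), with a difference of -1.17 ± 0.13 (adjusted p = 2.55e-06) and -0.91, -0.92 and -0.65 in the other states. Probe set 93028_at, annotated to more than 1 gene, was the fourth lower in all 4 states, at -1.59, -1.40, -2.08 and -1.71.

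In all, 5 probe sets were higher in clone 2 in all 4 states. Erdr1, named for erythroid differentiation, measured 11.83, 12.51 and 12.43 in clone 2 and 11.23, 11.31, 11.05, 11.09 and 11.43 in clone 1, a difference of 1.04 ± 0.18 (adjusted p = 0.0011). Clone 2 array 1 was the lowest of its group but above every clone 1 array, and wild type lay between (11.86 ± 0.26). A second Erdr1 probe set, 98526_r_at, differed by 0.25 and was not called (adjusted p = 0.124). Tcstv1, a gene of the embryo at the 2-cell stage, measured 7.18, 7.32 and 7.55 in clone 2 and 6.95, 6.54, 6.92, 6.85 and 6.74 in clone 1. The groups did not overlap, and the difference was 0.55 ± 0.11 (adjusted p = 0.0036), and 0.85, 0.53 and 0.69 in the other states. AF067061 (0.44 ± 0.10) and Gm20767 (0.49 ± 0.12) lie on chromosome 13 like Tcstv1, were called in all 4 states too, and all 3 are read by probe sets whose _f_at suffix marks sequence shared within a gene family, so the 3 values may come from the same transcripts. The fifth, 96215_f_at, has no gene name here and differed by 1.06.

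These 9 were called in each state against 0.7% of probe sets called in unrecombined cells with 4-OHT (0.427% higher and 0.274% lower). The shares were 0.411% in recombined cells without 4-OHT (0.0805% higher and 0.33% lower) and 0.378% in recombined cells with it (0.129% higher and 0.25% lower). Of the list of 2-cell-stage genes, 3 of 5 measured were called higher in unrecombined cells without 4-OHT and none lower. That is 60.0%, against 3.77% of all genes called higher. Besides Tcstv1 these were Usp17la (0.42 ± 0.12, adjusted p = 0.0314) and Tcstv3 (0.34 ± 0.11, adjusted p = 0.0461), a close relative of Tcstv1. Of the 3, Tcstv1 alone was called without clone 1 array 3 or without clone 1 array 5.

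**Figure D1:**
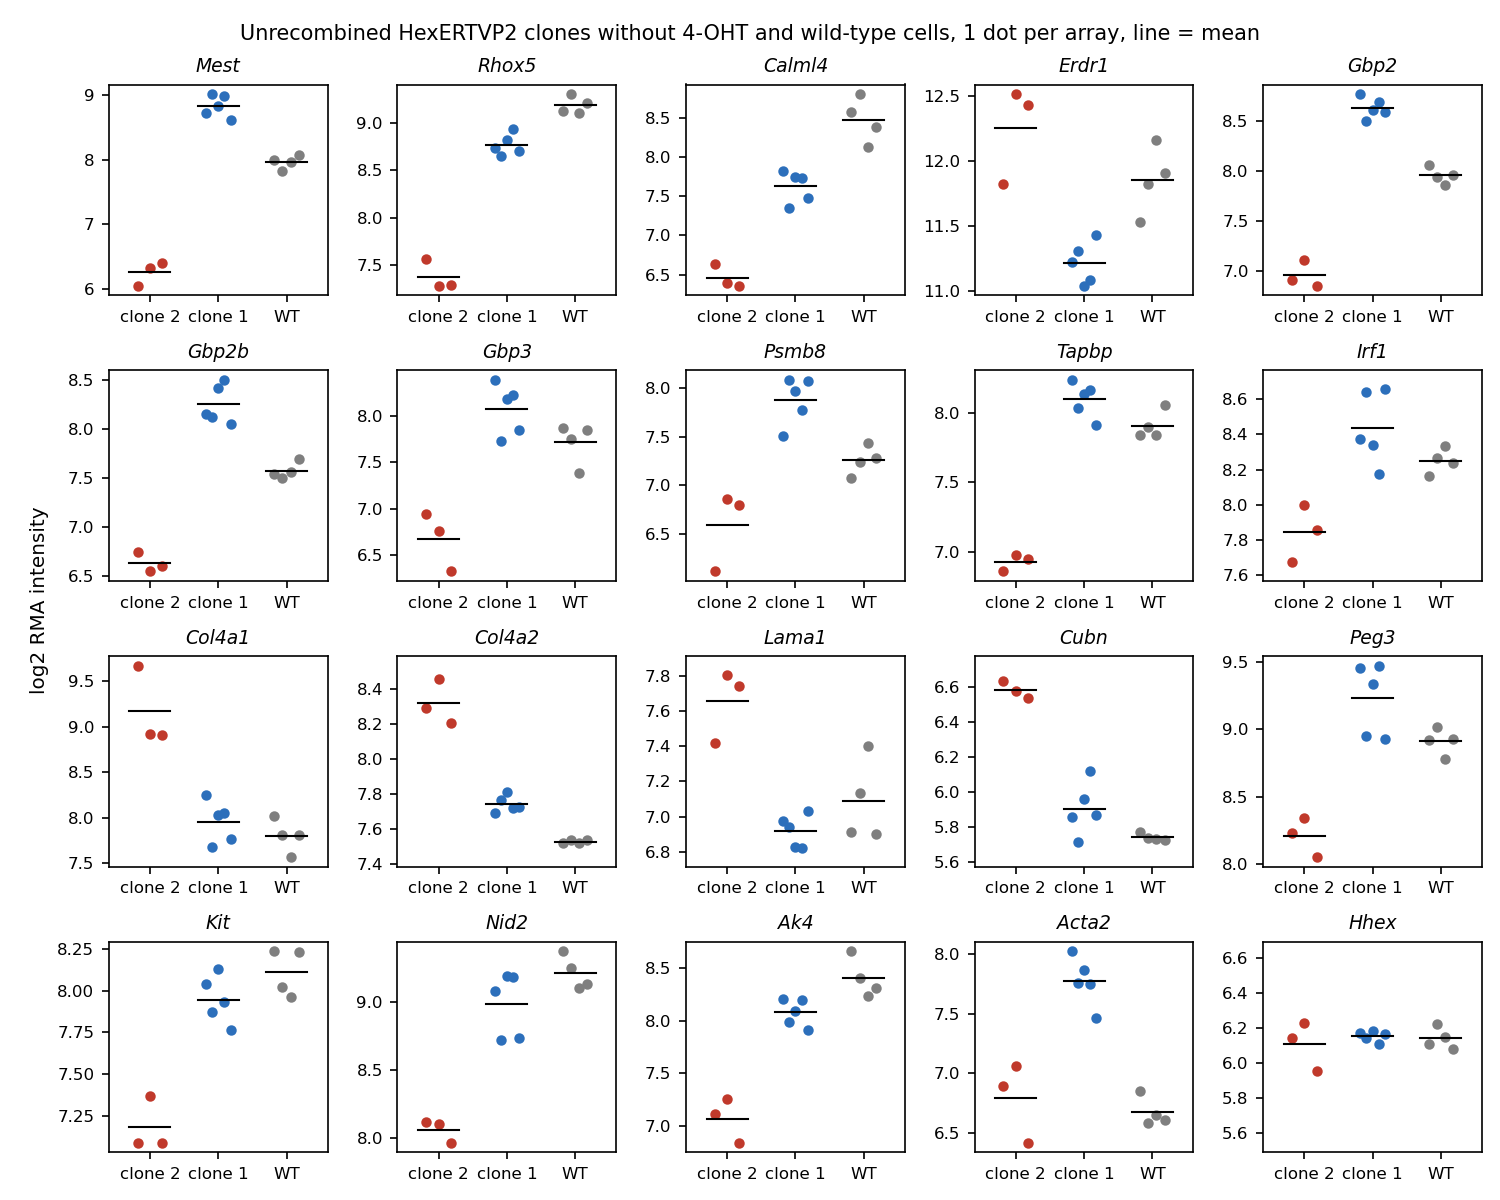
Log2 RMA intensity of 20 genes in unrecombined clone 2 (3 arrays), unrecombined clone 1 (5 arrays) and wild-type cells (4 arrays), 1 dot per array with the mean as a line, each panel with its own axis. Clone 2 and clone 1 do not overlap for any gene shown except Hhex, and for Mest the 3 clone 2 arrays lie at 6.05 to 6.40 against 8.61 to 9.02 in clone 1. The largest rises and falls were picked among called probe sets without overlap, so for those genes the lack of overlap follows from the choice.

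Of 31 measured genes on the interferon and antigen presentation list, 11 were called lower in clone 2 and 1 higher (38.7%, against 9.79% of all 8251 genes with 1 probe set each). The list's median difference was -0.15, against 0.04 for all genes. Of the 11, 6 were called under each alternative: Gbp2, Gbp2b, Gbp3, Psmb8, Irgm1 and Irf1. The other 5 were Ifi35 (-0.57), Isg15 (-0.51), H2-K1 (-0.40), H2-D1 (-0.34) and Cxcl10 (-0.29). The gene called higher was Irf8 (0.34), a transcription factor of blood cells. Members that were not called included the GTPase genes Igtp (-0.20) and Iigp1 (0.39) and the peptide transporter genes Tap1 (-0.06) and Tap2 (0.26). Fitted on the 8 arrays alone, 6 genes of the list were called lower and none higher (12 lower at an unadjusted p under 0.05).

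Gbp2, a guanylate-binding GTPase, measured 6.91, 7.11 and 6.86 in clone 2 and 8.77, 8.50, 8.61, 8.69 and 8.59 in clone 1. Wild type lay between the clones (7.96 ± 0.08), and Gbp2 was 3.19-fold lower in clone 2, with a difference of -1.67 ± 0.08 (adjusted p = 4.13e-13). Its neighbours in the same gene cluster on chromosome 3 followed: Gbp2b measured 6.75, 6.55 and 6.61 in clone 2 against 8.16, 8.12, 8.42, 8.50 and 8.05 in clone 1 (-1.61 ± 0.11, adjusted p = 7.18e-10). Gbp3 measured 6.94, 6.76 and 6.33 in clone 2 against 8.39, 7.73, 8.18, 8.23 and 7.85 in clone 1 (-1.40 ± 0.15, adjusted p = 1.27e-06). For each of the 3 the highest clone 2 array lay below the lowest clone 1 array. These GTPases are closely related in sequence, and probes may read more than 1 of them.

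Psmb8, a subunit of the immunoproteasome that cuts proteins into peptides for display, measured 6.12, 6.86 and 6.80 in clone 2 and 7.50, 8.08, 7.97, 7.77 and 8.08 in clone 1. Its difference was -1.29 ± 0.20 (adjusted p = 2.21e-04), whereas the partner subunits Psmb9 (-0.15) and Psmb10 (-0.22) were not called. Tapbp encodes tapasin, which loads peptides onto MHC class I, and measured 6.86, 6.98 and 6.95 in clone 2 against 8.24, 8.04, 8.13, 8.17 and 7.91 in clone 1 (-1.17 ± 0.11, adjusted p = 3.85e-07). The arrays of the clones did not overlap for either gene. Its other probe sets, 102689_at (0.06) and 162104_f_at (0.08), were not called, and since the list takes the brightest probe set of a gene, Tapbp is not among the 11. Among regulators, Irgm1, an immunity-related GTPase, differed by -0.79 ± 0.11 (adjusted p = 1.25e-04) and Irf1, a transcription factor that activates interferon-response genes, by -0.59 ± 0.11 (adjusted p = 0.0028). Probe sets 100588_at (-0.83) and 102906_at (-0.53), each annotated to more than 1 gene, were also lower under each alternative.

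The difference in these genes was found in unrecombined cells with 4-OHT and was not called in recombined cells. With 4-OHT, Gbp2 differed by -1.27 (limma, adjusted p = 2.67e-09), Gbp2b by -1.43, Gbp3 by -1.18, Psmb8 by -1.08 and Tapbp by -0.73. In that state 8 of the 31 listed genes were called lower, against 23 of all 8251 genes. In recombined cells Gbp2 differed by 0.27 without 4-OHT and 0.20 with it (adjusted p = 0.311 and 0.868), and no gene of the list was called in either direction. The levels of both clones moved: in recombined cells without 4-OHT Gbp2 averaged 7.83 in clone 2 and 7.55 in clone 1. The Gbp2 difference in unrecombined cells minus the mean of the other 3 states was -1.41 ± 0.10 (adjusted p = 7.84e-10). Coch, which encodes the secreted protein cochlin, and Pim2, a survival kinase, were at -1.26 ± 0.16 and -1.11 ± 0.20 in unrecombined cells, -0.07 and 0.55 in recombined cells, and -0.89 and -0.94 in unrecombined cells with 4-OHT. A second Pim2 probe set, 161233_at, differed by -0.23 in unrecombined cells and was not called (adjusted p = 0.101). Similar values were seen for Xbp1, a transcription factor of the unfolded protein response, at -1.20 ± 0.15 in unrecombined cells, 0.07 in recombined cells and -0.93 in unrecombined cells with 4-OHT. Xbp1 missed the threshold when all 40 arrays with usable labels were fitted together (adjusted p = 0.0627). That fit holds 1 array of the unrecombined Hex line (Hex targeted to Rosa26) that stood apart, with a mean correlation of 0.869.

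Promoters of the 11 lower genes were read for 2 elements through which interferon acts. The windows were the 250 bases before each gene's start in RefSeq (GRCm38.p6), available for all 11. The interferon-stimulated response element, searched as GAAA, any 2 bases and GAAA again on either strand, was found in 6 and the interferon-gamma-activated site, searched as TTCNNNGAA, which reads the same on both strands, in 2, making 8 with either. Over 32817 RefSeq windows of the same length, 2.97% held the first and 7.01% the second. The list was made of interferon and antigen presentation genes, so a share above that of all windows follows from the choice of list. It says nothing about the clone difference. Listed genes that were not called lower were not searched. Those with the first element include the neighbouring and related Gbp2, Gbp2b and Gbp3. A match describes letters in the window and is not evidence of binding. Below are the 120 bases before the start of the 6 genes with a match inside that stretch, 5′ to 3′ on the gene's strand, with the matching letters in capitals. Gbp2 is at chr3:142620543-142620662 on the plus strand, Gbp3 at chr3:142559924-142560043 on the plus strand, Irgm1 at chr11:48871421-48871540 on the minus strand, Isg15 at chr4:156200819-156200938 on the minus strand, Irf1 at chr11:53769894-53770013 on the plus strand and Psmb8 at chr17:34198075-34198194 on the plus strand. The first 4 hold the response element and the last 2 the activated site. In Gbp3, Irgm1 and Isg15 the capitals cover overlapping matches.
Gbp2: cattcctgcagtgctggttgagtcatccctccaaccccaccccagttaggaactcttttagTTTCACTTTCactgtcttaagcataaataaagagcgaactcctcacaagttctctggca
Gbp3: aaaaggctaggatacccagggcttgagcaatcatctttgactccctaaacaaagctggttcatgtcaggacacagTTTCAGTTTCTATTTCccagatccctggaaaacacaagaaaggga
Irgm1: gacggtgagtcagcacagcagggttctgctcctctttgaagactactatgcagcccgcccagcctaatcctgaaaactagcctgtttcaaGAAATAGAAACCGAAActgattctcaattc
Isg15: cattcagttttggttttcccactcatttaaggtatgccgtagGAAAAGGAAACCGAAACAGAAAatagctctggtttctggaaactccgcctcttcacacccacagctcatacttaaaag
Irf1: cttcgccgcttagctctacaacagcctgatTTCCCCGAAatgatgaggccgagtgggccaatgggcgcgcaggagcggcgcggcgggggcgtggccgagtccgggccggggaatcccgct
Psmb8: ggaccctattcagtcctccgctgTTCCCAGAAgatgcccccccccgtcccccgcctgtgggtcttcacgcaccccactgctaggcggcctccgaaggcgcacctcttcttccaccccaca

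Some basement membrane and endoderm genes were called higher in clone 2, 4 of 17 and 8 of 36 measured, with 3 genes on both lists. Col4a1 and Col4a2 encode the 2 chains of the common type IV collagen and are transcribed in opposite directions from starts 21 bases apart. Col4a1 measured 9.67, 8.92 and 8.91 in clone 2 and 8.25, 7.67, 8.03, 8.05 and 7.76 in clone 1, a difference of 1.21 ± 0.19 (adjusted p = 2.67e-04). Col4a2 measured 8.29, 8.45 and 8.21 in clone 2 and 7.69, 7.77, 7.81, 7.72 and 7.72 in clone 1, a difference of 0.57 ± 0.07 (adjusted p = 7.30e-06). For Col4a1, clone 1 lay close to wild type (7.80 ± 0.18). For Col4a2, each clone 1 array lay above the wild-type mean (7.53 ± 0.01) and below each clone 2 array. The clones did not overlap for either gene.

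Lama1, the laminin chain of the earliest basement membranes, measured 7.42, 7.81 and 7.75 in clone 2 and 6.98, 6.94, 6.83, 6.82 and 7.03 in clone 1 (0.74 ± 0.14, adjusted p = 0.0024). Cubn encodes cubilin, an uptake receptor of visceral endoderm, and measured 6.63, 6.57 and 6.54 in clone 2 and 5.86, 5.71, 5.96, 6.12 and 5.87 in clone 1 (0.68 ± 0.10, adjusted p = 8.43e-05). Its other probe set, 94999_at, differed by 0.39 without a call (adjusted p = 0.0669). Nid2, encoding nidogen 2, which links laminin to collagen, went the other way: it measured 8.12, 8.10 and 7.96 in clone 2 and 9.08, 8.72, 9.19, 9.19 and 8.74 in clone 1 (-0.92 ± 0.15, adjusted p = 5.09e-04). Of 17 basement membrane genes measured, 4 were called higher (23.5%, against 3.77% of all genes), the fourth being Col4a5 (0.28). Nid2 was the 1 called lower (5.88%, against 6.02% of all genes).

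Of 36 primitive and visceral endoderm genes, 8 were called higher (22.2%, against 3.77% of all genes). Fgfr2 (-0.22), a growth factor receptor gene, was the 1 called lower, while its probe set 93091_s_at gave 0.20 without a call. The list's median difference was 0.16, against 0.04 for all genes. Besides the collagens and Lama1 these were the endoderm transcription factors Sox17 (0.50 ± 0.10), Hnf4a (0.44) and Gata6 (0.31) and the apolipoproteins Apoa1 (0.48) and Apoa4 (0.33). Sox17 measured 7.32, 7.40 and 7.73 in clone 2 and 6.95, 7.03, 6.88, 7.09 and 6.95 in clone 1, and its other probe set, 92996_at, gave 0.30 without a call (adjusted p = 0.0579). Cubn, which is on the list, is represented there by its brighter probe set. Without clone 2 array 3, 3 of the 36 were called higher (the collagens and Lama1 are those called under each alternative), while 15 passed an unadjusted p under 0.05. With the β-actin ratio in the fit 13 were called higher. The summed linear intensity of 8 primitive endoderm markers was 1849 to 2307 in clone 2, against 1530 to 1664 in clone 1 and 1430 to 1704 in wild type. Col4a1 was the brightest of the 8. Without it the other 7 summed to 1366 to 1492 in clone 2, against 1314 to 1402 in clone 1 and 1241 to 1446 in wild type, and the ranges overlapped. Sums of 7 trophoblast markers (555 to 614 in clone 2, 533 to 551 in clone 1) also lay above clone 1. So did those of 3 mesoderm markers (163.9 to 185.3 against 147.8 to 163.5), while the sums of neural and blood markers overlapped. A larger share of endoderm cells and more RNA per cell cannot be told apart in these cultures. The clone difference over all probe sets also moved with level, from -0.14 in the brightest 10% to 0.12 in the band where it was highest. The endoderm list had a median level of 6.83, and the part of that shift in its differences and in the sums was not tested. In unrecombined cells with 4-OHT the list's median difference was 0.004, against -0.03 for all genes.

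In recombined cells the collagen differences lay below 0. Col4a1 was at 1.58 in unrecombined cells with 4-OHT (adjusted p = 7.19e-05), but at -0.99 in recombined cells (adjusted p = 0.0133) and -0.49 in recombined cells with 4-OHT (adjusted p = 0.786). Col4a2 gave 0.57, -0.38 and -0.37 in the same states, all called (adjusted p = 7.19e-05, 0.0073 and 0.0113). Lama1 gave 0.52, -0.25 and -0.48, and Cubn 0.58, -0.16 and -0.32, of which the 0.58 was called. The difference in unrecombined cells without 4-OHT minus the mean of the 2 recombined states, a contrast chosen after the values were seen, was 1.95 for Col4a1 (adjusted p = 2.53e-05), 0.95 for Col4a2, 1.10 for Lama1 and 0.92 for Cubn. For the interferon genes it was -1.91 for Gbp2 (adjusted p = 2.98e-12), -1.82 for Gbp2b, -1.62 for Gbp3, -1.59 for Psmb8 and -1.16 for Tapbp. For Mest it was -0.39 (adjusted p = 0.326).

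**Figure D2:**
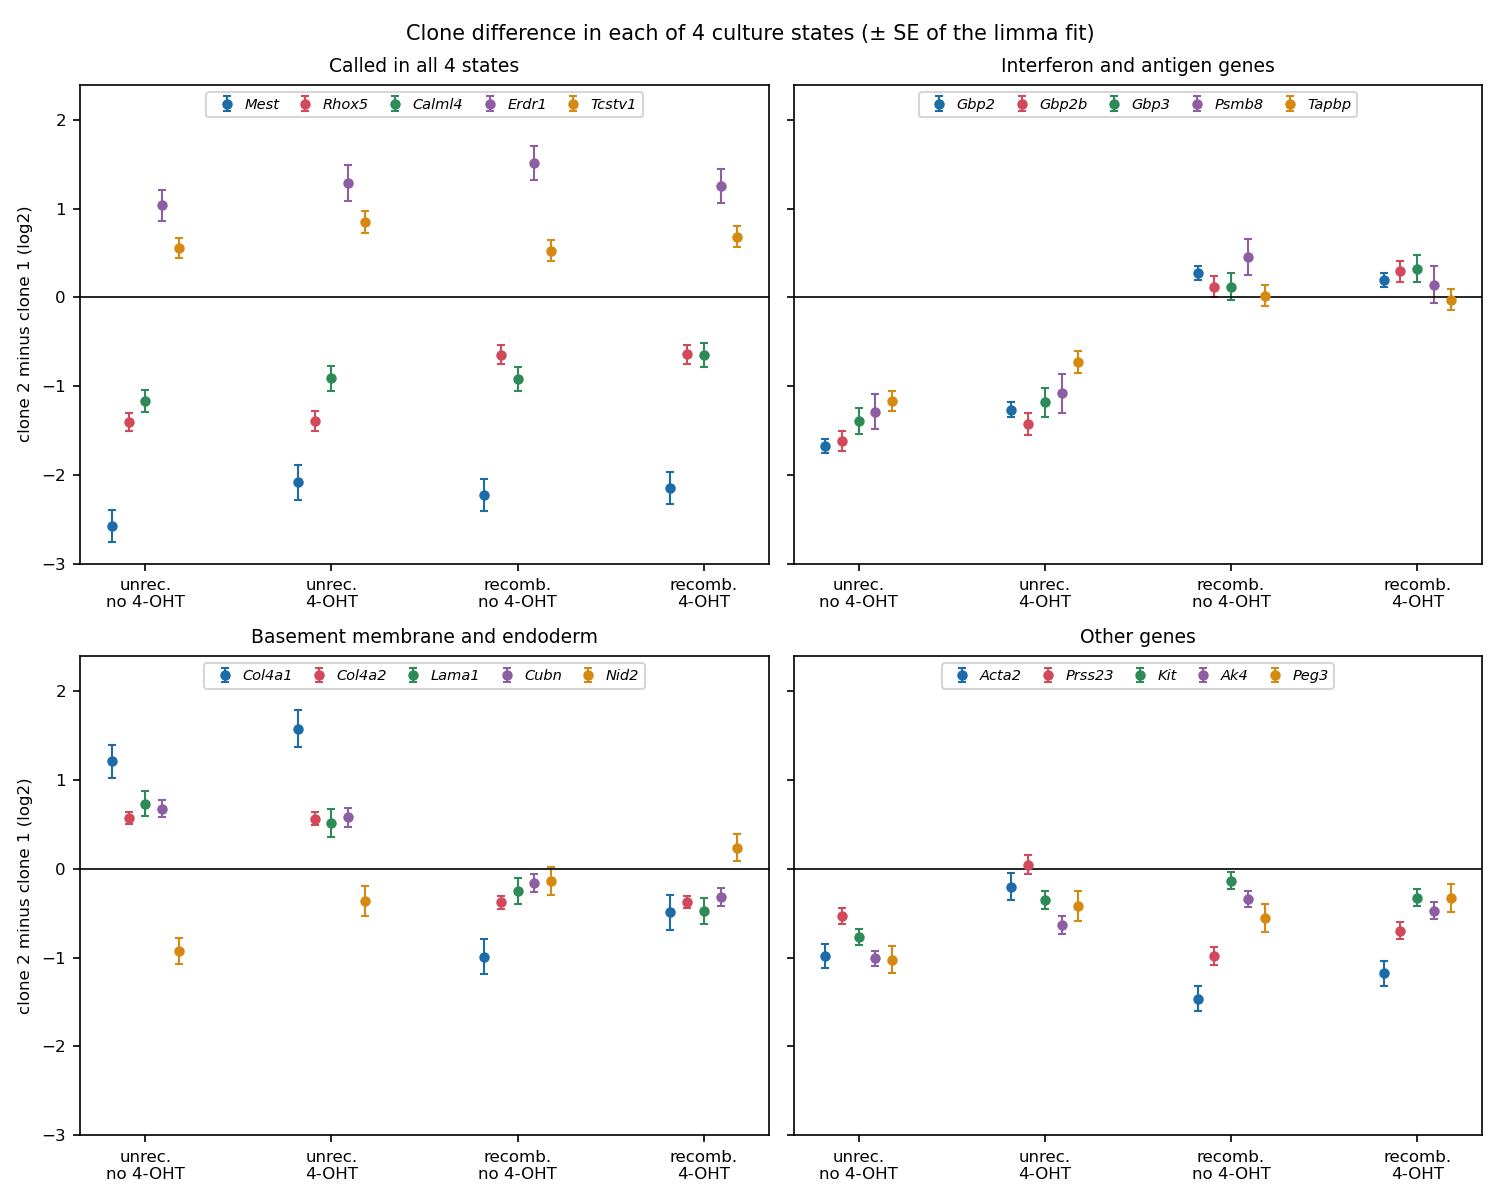
Clone 2 minus clone 1 on the log2 scale, with the standard error of the limma fit, in unrecombined and recombined cells without and with 4-OHT, for 20 genes in 4 panels. Mest stays between -2.58 and -2.08 throughout, Gbp2 lies at -1.67 and -1.27 in unrecombined cells and at 0.27 and 0.20 in recombined cells, and Col4a1 is above 0 in unrecombined and below 0 in recombined cells.

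Across all probe sets, 285 (2.29%) had a clone difference in unrecombined cells without 4-OHT that differed from the mean of the other 3 states, 81 upwards (0.652%) and 204 downwards (1.64%). That count was 52 without clone 2 array 3, 107, 121 and 93 without clone 1 array 1, 3 or 4, and 448, 705 and 516 without clone 2 array 1, clone 2 array 2 or clone 1 array 5. The clone differences of separate arrays overlapped most among unrecombined cells. Of the 87 probe sets called with 4-OHT, 53 were called in the same direction without it (60.9% of the 87 and 4.90% of the 1081) and none in the opposite one. For the 51 called in recombined cells without 4-OHT the number was 15 (29.4%, with 2 opposite), and for the 47 called in recombined cells with it 14 (29.8%, with 4 opposite).

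The median gene on chromosome 8 was higher in clone 2 than in clone 1. By RefSeq (GRCm38.p6) 409 measured genes lie there, of which 41 were called higher and none lower, against 311 higher and 497 lower among all 8251 genes. Their median difference was 0.17, or 0.14 above that of all genes, and 83.9% of them lay above the median of all genes. The other chromosomes lay between -0.13 (chromosome 18) and 0.04 (chromosome 7) relative to all genes. In the other states chromosome 8 was again the highest. It lay at 0.18 in unrecombined cells with 4-OHT, 0.07 in recombined cells and 0.05 in recombined cells with 4-OHT. The highest value of any other chromosome was 0.02 in each. Chromosome 8 calls were 20 higher and none lower in unrecombined cells with 4-OHT, against 38 and 23 among all 8251 genes. In recombined cells none was higher and 3 were lower, against 7 and 30. In recombined cells with 4-OHT 2 were higher and 3 lower, against 11 and 25. The 41 include Col4a1 and Col4a2, so their values are in part those given above.

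Set against wild type, the median chromosome 8 gene of each array, minus that of all genes, was 0.03, 0.07 and 0.09 in clone 2, against -0.09, -0.07, -0.10, -0.11 and -0.05 in clone 1. Clone 2 thus lay above and clone 1 below wild type, whose own 4 arrays gave -0.03 to 0.02. Such positions were not particular to these clones. Arrays of the separate Hex line gave 0.04, 0.09, 0.01 and 0.07 when recombined and -0.06, -0.19, -0.04 and -0.09 when unrecombined. The number called depended on the arrays (13 without clone 2 array 3, 24, 24 and 21 without clone 1 array 1, 3 or 4, and 5 with the 8 arrays alone), while the shift of the chromosome 8 median stayed between 0.13 and 0.14 whichever array was left out. Besides the collagens the largest, chosen after their values were seen, were Ssbp4 (0.68 ± 0.17), a DNA-binding protein gene, Fkbp8 (0.52), Ckap2 (0.52), which acts in the mitotic spindle, and Tcf25 (0.49). Ckap2 was also at 0.68 in unrecombined cells with 4-OHT, while Vegfc, a growth factor for lymphatic vessels, was at 0.45 without and 1.03 with it. Extra copies of chromosome 8 are a known recurrent change in cultured mouse ES cells. DNA copy number was not measured here, and its part in the result was not tested.

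**Figure D3:**
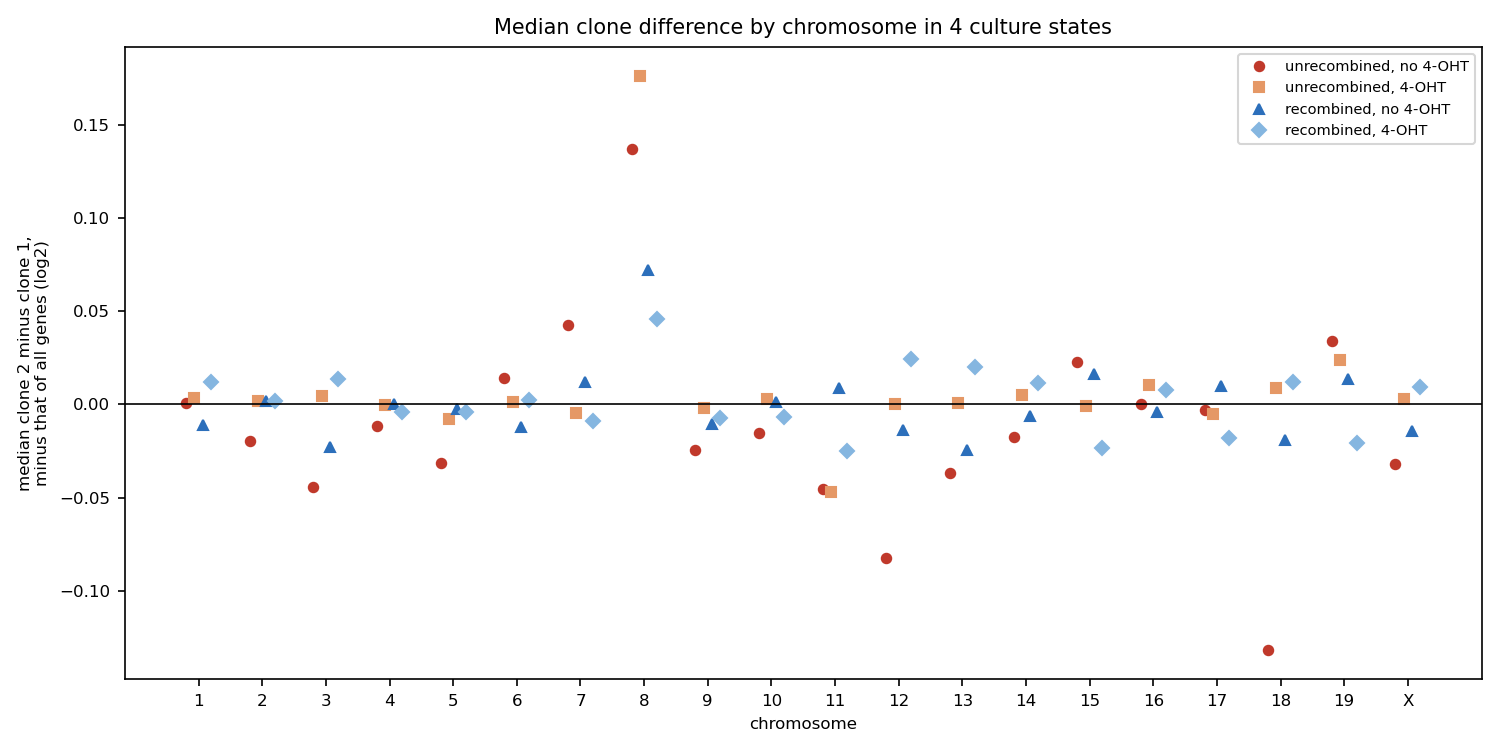
Median clone 2 minus clone 1 difference of the genes on each chromosome, minus the median of all genes (log2), in unrecombined and recombined cells without and with 4-OHT. Chromosome 8 is the highest in all 4 states, at 0.14, 0.18, 0.07 and 0.05, and chromosome 18 is the lowest, at -0.13, in unrecombined cells without 4-OHT.

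Of 28 imprinted genes measured, 6 were called lower and none higher (21.4%, against 6.02% of all genes called lower), with Mest first, and the list's median was 0.0007, against 0.04 for all genes. Peg3, a zinc finger gene expressed from the paternal copy, measured 8.23, 8.34 and 8.05 in clone 2 and 9.46, 8.95, 9.34, 9.47 and 8.93 in clone 1 (-1.02 ± 0.15, adjusted p = 2.00e-04). The groups did not overlap. A second Peg3 probe set, 101451_at, gave -0.93 (adjusted p = 8.43e-05), while 161316_f_at gave 0.02. Magel2 (-0.55 ± 0.09) was called under each alternative, as was Ndn at 101059_at (-0.58), though not at the brighter probe set that stands for it on the list (94811_s_at, -0.24, adjusted p = 0.438), and both lie in the same imprinted region of chromosome 7. Impact (-0.60), Gatm (-0.31) and Gnas (-0.30) were called in the main fit. Without clone 2 array 3 the list's count was 3. In the other states the first Peg3 probe set gave -0.42, -0.55 and -0.33 without a call, and 101451_at gave -0.73, -0.72 and -0.36, of which the unrecombined value with 4-OHT and the recombined value without it were called (adjusted p = 0.0109 and 0.0092).

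On the list of DNA methylation genes, 4 of 11 measured were called lower (36.4%, against 6.02% of all genes): Rhox5, the stress-response gene Gadd45a (-0.55 ± 0.11), the de novo methyltransferase Dnmt3a (-0.42 ± 0.13) and the methyl-binding protein gene Mbd2 (-0.28). Of these only Rhox5 was called under each alternative, and 2 were called without clone 2 array 2 or 3 or clone 1 array 1, 3 or 4. Probe set 101883_s_at, annotated to more than 1 gene, had the second largest fall of all, at -2.19 in unrecombined cells, -1.77 with 4-OHT, and -0.57 and -0.67 in recombined cells without a call.

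Of 27 naive pluripotency genes measured, 6 were called lower and none higher (22.2%, against 6.02% of all genes called lower), with a list median of -0.05. None of the 6 was called under each alternative, and Dppa4 (0.27), Dppa5a (0.21), Esrrb (0.21) and Fgf4 (0.21) lay above 0 without a call. Klf4, a factor downstream of LIF, measured 9.14, 8.82 and 8.65 in clone 2 and 9.71, 9.37, 9.73, 9.73 and 9.28 in clone 1 (-0.69 ± 0.15, adjusted p = 0.0058). Gbx2 differed by -0.76 ± 0.14, Dppa3 (also called Stella) by -0.67 ± 0.13 and Tfcp2l1 by -0.55 ± 0.08, each with clones that did not overlap. A second Tfcp2l1 probe set, 97193_at, differed by -0.02 (adjusted p = 0.939). Nanog (-0.55, adjusted p = 0.0084, with 161653_f_at at -0.37 and not called) and Nr5a2 (-0.27, adjusted p = 0.0058) made up the 6. In the fit of all 40 arrays none of the 6 was called (limma, with 7 genes lower at an unadjusted p under 0.05). That fit holds the Hex array that stood apart. Without clone 2 array 3 Klf4 was at an adjusted p of 0.064. Pou5f1 and Sox2, the core factors, were not called. With 4-OHT 1 listed gene was called higher in clone 2 and none lower, against 38 and 23 of all 8251 genes. The list median there was 0.10, against -0.03 for all genes.

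Of 12 germ cell genes, 3 were called lower (25.0%) and 1 higher (8.33%), against 6.02% and 3.77% of all genes. Dppa3 is one of the 3. The others, Kit, the receptor for stem cell factor, and Tfap2c, a transcription factor gene of primordial germ cells and trophoblast, were called lower under each alternative. Kit measured 7.09, 7.37 and 7.09 in clone 2 and 8.04, 7.87, 8.13, 7.93 and 7.76 in clone 1 (-0.76 ± 0.09, adjusted p = 8.22e-06), with clone 1 close to wild type (8.11 ± 0.14). Tfap2c differed by -0.56 ± 0.09 (adjusted p = 3.82e-04). Dazl, an RNA-binding germ cell gene, was called higher (0.37 ± 0.10) by 1 probe set, while its other probe set, 94750_at, gave -0.25. In the LIF pathway Il6st, the shared receptor chain gp130, differed by -0.66 ± 0.14 (adjusted p = 0.0067) and was called under each alternative, although its second probe set, 98349_at, gave 0.15. Prom1, a surface protein of stem cells, fell by both of its probe sets that were called under each alternative (-0.97 and -0.91), and was at 0.10 and 0.07 in recombined cells without and with 4-OHT by the first.

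Of 24 cholesterol and fatty acid synthesis genes, 7 were called lower and none higher (29.2%, against 6.02% of all genes called lower), with a median of -0.20. Scd2, a fatty acid desaturase, differed by -0.76 ± 0.11 (adjusted p = 1.60e-04) and was called under each alternative, and Hmgcs1, an early enzyme of cholesterol synthesis, by -0.71 ± 0.15. The others were Sc5d (-0.88), Idi1 (-0.52), Ebp (-0.43), Scd1 (-0.42) and Cyp51 (-0.38). That count was 2 without clone 2 array 3 and 4 without clone 1 array 4. Of 24 hypoxia and glycolysis genes, 5 were called lower (20.8%) and none higher. Ak4, a mitochondrial adenylate kinase, measured 7.11, 7.26 and 6.84 in clone 2 and 8.21, 7.99, 8.09, 8.20 and 7.91 in clone 1 (-1.01 ± 0.09, adjusted p = 4.41e-08), without overlap, while a dimmer probe set, 99521_at, gave -0.34 without a call. Its difference was -0.63, -0.34 and -0.47 in the other states. Pfkp, a phosphofructokinase, fell by both of its probe sets (-1.22 ± 0.25 and -0.99 ± 0.21), and the rest were Bnip3 (-0.56), Pdk1 (-0.37) and Hk2 (-0.30). Without clone 2 array 3 the count was 2, and without clone 2 array 1 or clone 1 array 3 or 4 it was 3.

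Acta2, the actin of smooth muscle, and Prss23, a secreted protease induced by oestrogen, shared another pattern. Acta2 measured 6.89, 7.06 and 6.42 in clone 2 and 8.02, 7.76, 7.87, 7.75 and 7.46 in clone 1 (-0.98 ± 0.13, adjusted p = 6.74e-05). Here clone 2 lay close to wild type (6.67 ± 0.12) and clone 1 stood above it. Acta2 was again lower in recombined cells (-1.46 without and -1.18 with 4-OHT, both called) but not called in unrecombined cells with 4-OHT (-0.20, adjusted p = 0.999). Prss23 gave -0.53, 0.05, -0.98 and -0.70 over the same comparisons. Of the 29 fibroblast and smooth muscle genes measured Acta2 was the 1 called lower, while 2 were called higher. The share called, 10.3%, was near the 9.79% of all genes. Of the 2 higher, 1 was called without clone 1 array 5 and none without clone 2 array 1 or 3 or clone 1 array 1, 2, 3 or 4. Acta2 is itself one of the 12 fibroblast markers summed above. Summed without it, the other 11 gave 1815 to 1961 in clone 2, against 1866 to 1958 in clone 1 and 1689 to 1777 in wild type, so that the clones overlapped, and none of the 11 was called (limma).

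The genes the study was built around were not called. Hhex measured 6.14, 6.23 and 5.95 in clone 2 and 6.17, 6.14, 6.18, 6.11 and 6.17 in clone 1 (-0.05 ± 0.08, adjusted p = 0.712). Nodal, a signal of the TGF-β family, differed by -0.12 ± 0.14 (adjusted p = 0.602) and Tle4, a Groucho co-repressor, by 0.06 ± 0.24 (adjusted p = 0.882). These values miss the threshold, which does not show that the clones are alike: the Tle4 arrays ran from 8.28 to 8.94 in clone 2 and from 8.24 to 8.85 in clone 1. Probe sets on the endogenous Hhex gene may or may not read the targeted construct. Of the other Groucho genes, Tle1 was called lower under each alternative (-0.68 ± 0.10, adjusted p = 1.42e-04) and Tle3 differed by -0.37 ± 0.08 (adjusted p = 0.0061).

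Among the remaining lists, cell cycle genes (1 of 40 called), cytosolic ribosomal proteins (none of 28) and mitochondrial respiration genes (2 of 43) had fewer calls than the 9.79% of all genes. No ribosomal gene was called higher or lower by limma, and Rpl32 (0.35) and Rpl39l (0.27) had the largest differences. In the Nodal and activin pathway 5 of 23 were called lower (21.7%, against 6.02% of all genes), led by the repressor Tgif1 (-0.48). That count was 1 without clone 2 array 3, 2 without clone 1 array 1 or 4, and 3 without clone 2 array 1 or clone 1 array 3 or 5. Of 22 heat shock and chaperone genes 4 were called lower (18.2%) and 1 higher (4.55%, against 3.77% of all genes). The lower ones were led by Hspa5 (-0.72), a chaperone of the endoplasmic reticulum. None was called lower without clone 2 array 3 (4 at an unadjusted p under 0.05 in limma), 1 was without clone 2 array 1 or clone 1 array 3 or 4, and 2 were without clone 1 array 1. Among adhesion genes Cdh2, encoding N-cadherin, had the largest difference (-1.28 ± 0.27), with an adjusted p of 0.0762 without clone 2 array 3.

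**Figure D4:**
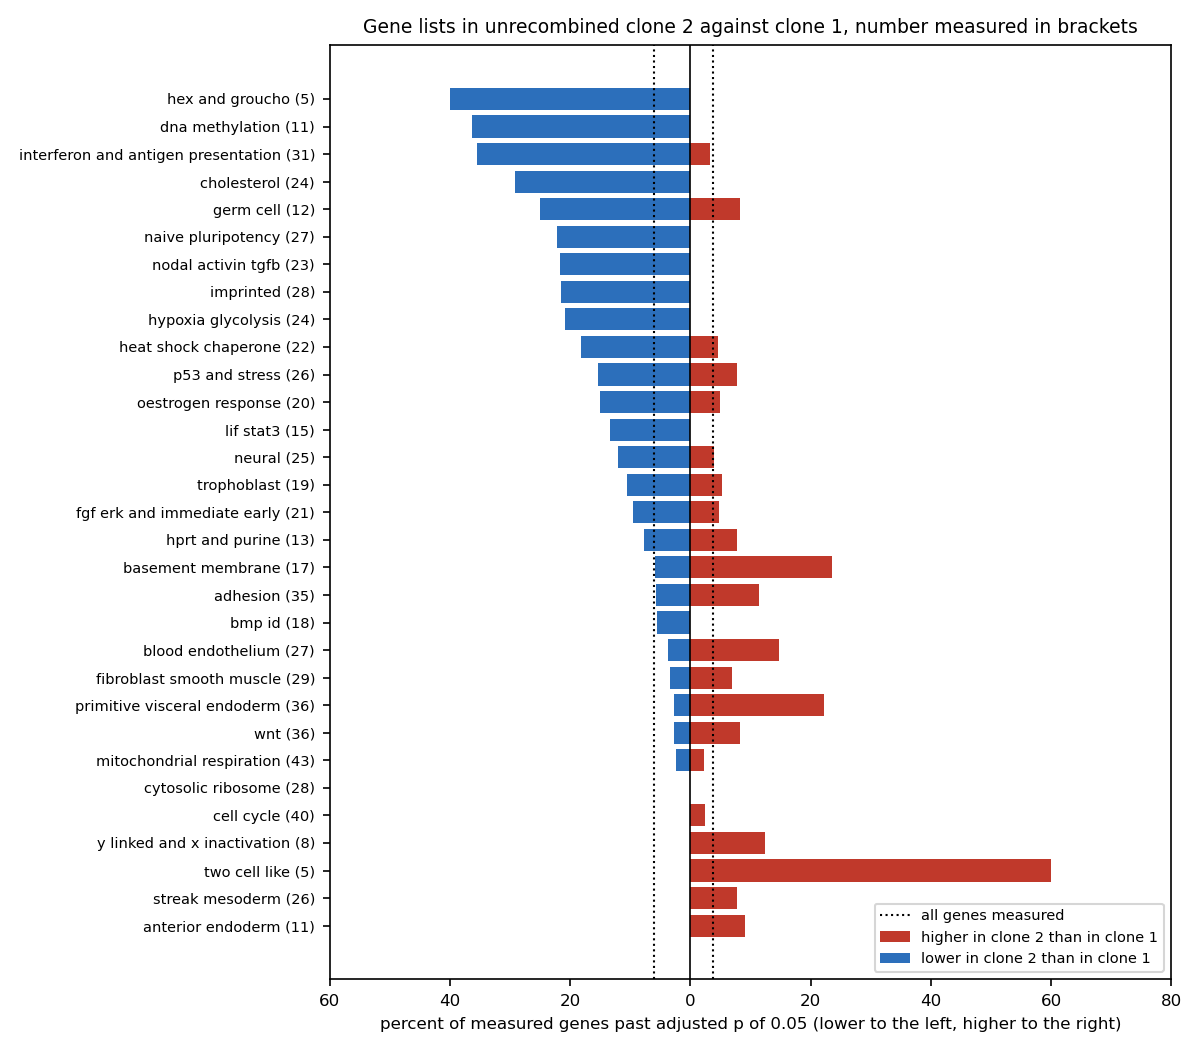
Percent of the measured genes of each of 31 lists called higher (right) or lower (left) in unrecombined clone 2 than in clone 1, with the number measured in brackets and dotted lines for all 8251 genes. The interferon list has 11 of 31 genes called lower, the primitive and visceral endoderm list 8 of 36 higher, and the lists with 5 genes measured rest on few genes.

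Wild type was nearer to clone 1 than to clone 2 for most of these genes. The wild-type mean was nearer to clone 1 for 442 of the 462 probe sets called higher and for 566 of the 619 called lower, where 81.7% of all probe sets had wild type nearer to clone 1. Among the 93 called under each alternative it was nearer to clone 1 for 14 of 15 higher and 71 of 78 lower. For Gbp2, Gbp2b, Mest and Erdr1 it lay between the clones, for Rhox5 and Calml4 beyond clone 1, and for Acta2 beyond clone 2.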

How the data were processed

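RNA was hybridised to 1-colour Affymetrix MG-U74Av2 arrays. The deposited values are probe set intensities on a linear scale, made with RMA per the submitters' processing notes; version, settings and the arrays normalised together are not given in the sources used here. Arrays were grouped by title and code.

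The log2 of each intensity was fitted with limma 3.58.1 in R 4.3.3 over the 28 HexERTVP2 arrays in 8 groups (20 residual degrees of freedom), with no further normalization. Of 12488 probe sets, 66 controls were left out and 12422 tested. P-values were adjusted by Benjamini-Hochberg and called under 0.05. An exact test of 3 against 5 arrays cannot give a two-sided p below 0.0357. The number of arrays limits the precision. Probe set names came from GEO's platform annotation: 10833 had 1 symbol, 396 several and 1193 none. Chromosomes and promoters came from RefSeq (GRCm38.p6), where 10817 Entrez IDs matched. For gene lists and chromosomes the brightest probe set stood for each gene.

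The members and all 31 gene lists were chosen with earlier results of these data known. Named were Hhex, Tle4 and Nodal, up to 15 of the largest rises and falls without overlap between the clones, up to 10 in each direction called in all 4 states, up to 8 in each direction of the contrast with the other states, and up to 4 of each list. Further list members, chromosome 8 genes, Nanog, Ndn and Prom1 were named after their values were seen. In data simulated from this comparison the fit recovered 97% of 100 changes of 1 log2 unit and 75% of 100 changes of 0.5. False calls made up 4.44% of the calls in those data. That share is no estimate for the 1081 real calls, whose number ran from 257 to 1540 with 1 array left out. How far deviations common to a whole array would change it was not tested. Alternatives covered the arrays fitted, each array left out, scaling, array weights, a level filter, the threshold, the β-actin ratio and the replicate number.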

Additional observations from a re-analysis of the deposited data

Results flagged for a closer look

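Among 109 named probe sets, 2 had 1 clone 1 array apart from the other 4 by Dixon's test, which flags about 1 group in 20 by chance. Cited2 was at 9.005 in clone 1 array 5, with the nearest other array at 9.30, and Slc39a8, a zinc and manganese transporter gene, was at 5.26 in clone 1 array 2, with the nearest at 5.37.

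The clone difference in unrecombined cells without 4-OHT differed from the mean of the other 3 states for 285 probe sets. Among named genes the contrast was -1.41 for Gbp2 (adjusted p = 7.84e-10), -1.28 for Gbp2b (5.37e-06), -1.15 for Gbp3 (0.0012), -1.13 for Psmb8 (0.0116) and -1.02 for Coch (0.0061). It was 1.18 for Col4a1 (adjusted p = 0.0063), 0.64 for Col4a2 (1.02e-04), 0.81 for Lama1 (0.0108) and 0.64 for Cubn (0.0041). Others below 0 were Ptch1, the Hedgehog receptor, at -1.06 (adjusted p = 0.0161; its probe set 104031_at had a clone difference of 0.16, not called), Gja1, a gap junction protein, at -1.05 (0.0307) and Zfp62 at -1.03 (0.0031). Others above 0 were Lgals1 at 0.93 (adjusted p = 0.0304), Acta1 at 0.77 (0.0238), Mapkapk2 at 0.72 (0.0474) and Galm at 0.61 (0.0440).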

How the results depend on the processing

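Of the named probe sets that were called, 27 were called under every alternative tried. Of the 1797 values of such probe sets, 1400 kept direction and call, 397 kept direction but missed the threshold and none reversed. The 1081 calls became 269 at a threshold of 0.01, 215 with the 8 arrays alone, 250 with all 40 arrays, 608 with array weights, 2658 with the β-actin ratio in the fit and 257 to 1540 with 1 array left out. With 39 arrays, leaving out unrecombined Hex array 2, there were 1555. That array's mean correlation with the others was 0.869, against 0.978 or more for each other array. The share called higher was 42.7% in the main fit, 16.7% with the 8 arrays alone, 37.7% with arrays centred 53.1% with the β-actin ratio and 61.0% without clone 2 array 2. The β-actin ratio gave 198 calls against 87 in unrecombined cells with 4-OHT and 84 against 51 in recombined cells. The 285 probe sets of the contrast with the other states became 46 at 0.01, 32 with 40 arrays, 657 with 39 (1 array of the Hex line left out), 777 with the replicate block, 1330 with the β-actin ratio and 52 to 705 with 1 array left out. The falls with 40 arrays were not seen once that Hex array was left out. Fewer arrays leave fewer degrees of freedom. For the other settings the cause was not tested. Deviations of same-numbered arrays correlated at 0.56, 0.32 and -0.05 for replicate numbers 1, 2 and 3. The labels do not say if a number marks a shared batch, and the main fit did not use it. The replicate block gave 1230 calls. Counts by list and by chromosome without single arrays were added after the data were seen.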

Other observations

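For 4 arrays title and code contradict each other, so they entered no comparison, and their values are given by array code. The array coded RHETVPcl1+4-OHT_3 had Mest at 8.91, Rhox5 at 8.70, Gbp2 at 8.62 and Col4a1 at 8.42. The one coded RHETVPcl2+4-OHT_1 had Mest at 6.51, Rhox5 at 7.27, Gbp2 at 7.19 and Col4a1 at 9.54. The one coded RRHETVPcl2_1 had Mest at 6.72, Rhox5 at 8.13, Gbp2 at 7.68 and Col4a1 at 8.23. The one coded RRHETVPcl2+4-OHT_1 had Mest at 7.08, Rhox5 at 8.03, Gbp2 at 7.64 and Col4a1 at 8.28. Over the arrays of all 4 states with labels in agreement, Mest ran from 6.05 to 7.30 in clone 2 and from 8.38 to 9.66 in clone 1.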
